A study of Ostreococcus tauri with 30 samples.

Results

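The comparison described here set 3 samples of Ostreococcus tauri taken 1 h after the higher of 2 copper additions against 3 control samples taken at the same hour, 6 of the 30 libraries of the series. The members were chosen by the sample labels alone, and no measured value entered the choice. O. tauri is a marine green picoalga with a compact genome, and all cultures were of the strain RCC745. Per the labels' protocols they grew in aerated flasks under 12 h of light and 12 h of dark in artificial seawater with Keller nutrients, among them 0.88 mM nitrate. The labels call the control group only control, and the lower and higher groups had copper added. The 10 groups of the series were controls at 0, 1, 4 and 12 h and both copper levels at 1, 4 and 12 h. The sample labels give the additions as 25 and 250 µM, whereas the treatment protocol gives 0.4 and 2 µM, so they are called lower and higher copper and no effect is tied to a dose. The labels do not say whether the 3 replicates of a group were separate cultures. Unless stated otherwise, the p-values rest on the spread of samples within all 10 groups and no more, and that spread may be technical.

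Copper is a cofactor of electron carriers in photosynthesis and of cytochrome c oxidase in respiration. In excess it binds thiols and takes part in reactions that make reactive oxygen, and algae answer with metal export, chelation by glutathione and its derivatives, and repair. No table used here pairs the locus tags of this alga with functions, so genes are named by their tags, 2 in each direction, and functions are read from the second deposited table, which counts reads per KEGG module (a named pathway or complex).

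The 6 libraries held 3189356 to 4775093 gene counts (all 30: 2549094 to 5232257). Higher copper replicate 1 stood apart. Across all tested genes its log2 levels correlated at 0.942 and 0.953 with the other higher copper libraries, which correlated at 0.987 with each other, and its nearest library was lower copper replicate 2 of 1 h (0.983). A second doubt concerned control replicate 3. The module counts of a library were 9.891 to 12.2 times its gene counts in 28 libraries, but 6.055 times in control replicate 3 at 1 h and 20.05 times in control replicate 3 at 4 h. With the 2 exchanged in 1 of the tables the ratios were 11.03 and 11.01. The labels of this pair are thus in doubt in the gene table or in the module table, and which one cannot be told apart from these totals. If the module labels are right, the gene results with exchanged labels apply, and if the gene labels are right, the module results with exchanged labels apply; both are given.

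At 1 h after higher copper, edgeR's quasi-likelihood test called 110 of 7190 genes at an adjusted p under 0.05, which is 1.53% of those tested. Of these, 30 rose (0.417%) and 80 fell (1.11%). Among the called genes the rises were the larger changes. Their median log2 fold change was 1.18, with a range from 0.45 to 2.90, and 16 of 30 rose at least 2-fold. The falls had a median of −0.68 and ranged from −1.48 to −0.45, and 5 of 80 fell at least 2-fold. The median standard error was 0.27 in the rises and 0.15 in the falls. With a larger error a gene has to change more to be called, so the sizes of the called changes are not directly comparable. The median over all tested genes was 0.02. In 109 of the 110 the 3 and 3 libraries did not overlap; the exception, named after its values were seen, was OT_ostta18g01240 at 2.43. Over all tested genes, 536 (7.45%) lay above the controls and 641 (8.92%) below them without overlap, called or not. At an unadjusted p under 0.05 there were 1011 genes.

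The called genes that rose and those that fell came from different levels of expression. A gene near the floor in the controls can be called as a rise but hardly as a fall. Part of this difference is therefore set by the filter and the test, and how much was not tested. In the controls at 0 h, whose levels do not enter the fold change although they add to the estimate of the spread, the genes that rose had a median of 11.3 CPM (read counts scaled to a common library total), those that fell 147 CPM, and all tested genes 35.1 CPM. In the 1 h controls 43.3% of the rises, 2.5% of the falls and 22.1% of all tested genes lay under 10 CPM, and 16.7%, 56.2% and 25.7% lay over 100 CPM. Summed over genes, the falls went from 22683 to 14304 CPM and the rises from 1370 to 2284 CPM. Levels here are per library and not per gene length.

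**Figure D1:**
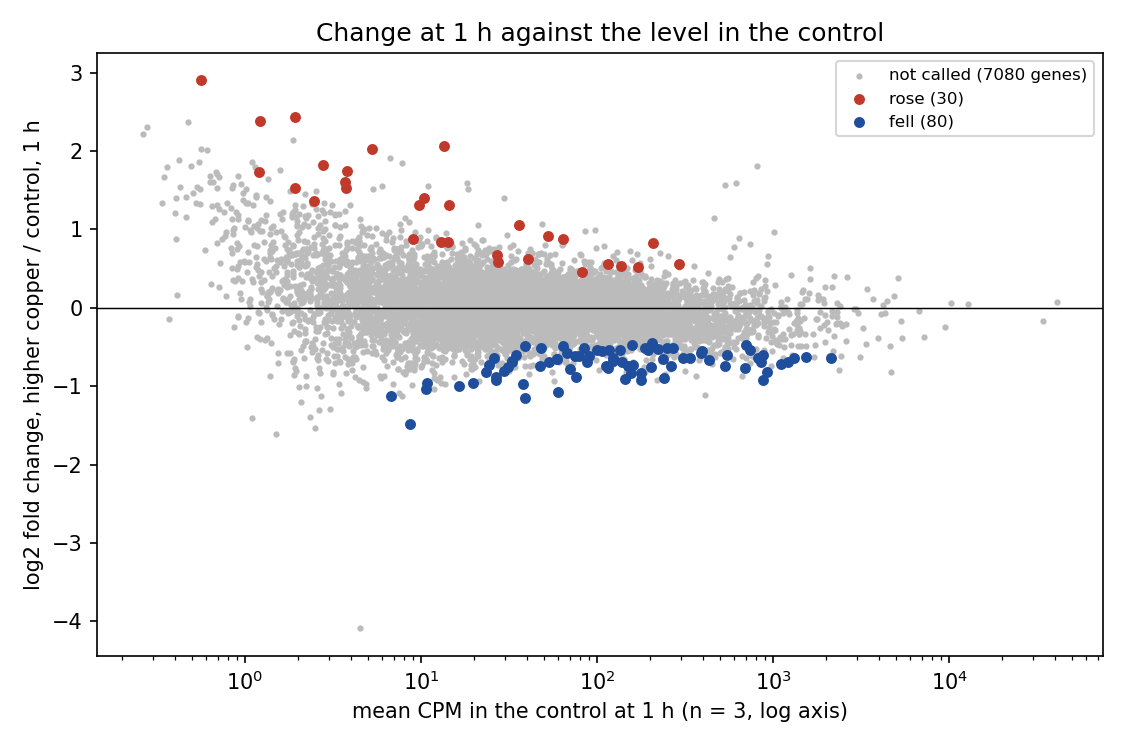
Log2 fold change of higher copper against control at 1 h (vertical axis) against the mean CPM in the 3 controls at 1 h (horizontal log axis), 1 point per gene. The 30 genes that rose sit mostly at the low left with changes up to 2.90, and the 80 that fell sit at higher levels with changes down to −1.48.

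OT_ostta01g06030, on chromosome 1 by its tag, stood at 0.454, 0.791 and 0.436 CPM in control replicates 1 to 3 and at 6.98, 4.91 and 1.91 CPM with higher copper. All 3 copper libraries lay above all 3 controls, and replicate 3 was the lowest of them. It rose by 2.90 ± 0.61 (log2, SE; edgeR adjusted p = 0.016), the largest rise called, from a level under 1 CPM in every control. With lower copper it stood at 1.20, 1.10 and 1.23 CPM. OT_ostta18g00970, on chromosome 18, stood at 0.682, 0.791 and 2.18 CPM in the controls and at 6.64, 8.10 and 4.77 CPM with higher copper, so that the groups lay well apart. It rose by 2.38 ± 0.47 (edgeR adjusted p = 0.0124), and stood at 3.12, 3.97 and 2.95 CPM with lower copper, between the other groups.

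OT_ostta03g04260, on chromosome 3, stood at 9.54, 10.7 and 5.67 CPM in the controls and at 0.997, 4.67 and 3.24 CPM with higher copper. It fell by 1.48 ± 0.36 on the log2 scale (edgeR adjusted p = 0.0396), with the lowest value in higher copper replicate 1, the library that stood apart. OT_ostta05g03160, on chromosome 5, stood at 51.6, 35.4 and 29.9 CPM in the controls and at 17.9, 13.0 and 21.4 CPM with higher copper. It fell by 1.15 ± 0.21 (edgeR adjusted p = 0.0105), and at 32.9, 25.1 and 21.6 CPM its lower copper libraries overlapped only the lower end of the controls.

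The gene count rested on few libraries. Without control replicate 1, control replicate 2 or higher copper replicate 2 of 1 h edgeR called 0 genes (635, 788 and 775 at an unadjusted p under 0.05). It called 36 without higher copper replicate 3, 64 without control 4 h replicate 2 and 66 without control 0 h replicate 2. Without higher copper replicate 1, the library that stood apart, it called 89 genes, of which 55 were among the 110. With both doubted controls left out it called 149 genes, 58 up and 91 down, of which 92 were among the 110. With their labels exchanged in the gene table it called 205, 75 up and 130 down, of which 97 were among the 110. In each of the 30 fits without 1 library, all 110 genes kept their sign and had an unadjusted p under 0.05, which is a statement about the 110 that were chosen on most of the same libraries. OT_ostta01g06030 was not called with exchanged labels (1.86, adjusted p = 0.107), nor without higher copper replicate 1, and DESeq2 on all 30 libraries gave it no adjusted p. OT_ostta03g04260 was lost in 10 of the 30 fits without 1 library, those without higher copper replicates 1 and 3 among them, whereas OT_ostta18g00970 and OT_ostta05g03160 were lost only without the 3 libraries that left 0 calls. When only the 6 libraries were fitted, edgeR called 0 genes (709 at an unadjusted p under 0.05) and DESeq2 called 76 of 6956 (1.09%).

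In the authors' deposited table of the same comparison, 78 of 7559 genes (1.03%) had an adjusted p under 0.05, 39 up and 39 down. The 110 genes called by edgeR over all libraries held 43 of them in the same direction, which is 55.1% of the authors' list and 39.1% of edgeR's. The authors' deposited table lists 6 genes for lower copper at 1 h (0.0795%, all up) and 0 for higher against lower copper. Of the 4 genes named above it calls OT_ostta05g03160 (adjusted p = 0.0287) and lists the other falls and rises with adjusted p values of 0.196 (OT_ostta03g04260) and 1 (both rises).

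Lower copper at 1 h gave no call: edgeR called 0 of 7190 genes (0%; 266 at an unadjusted p under 0.05) and DESeq2 called 0. The direct comparison of higher with lower copper also gave 0 of 7190 by edgeR (0%; 325 at an unadjusted p under 0.05) and 0 by DESeq2. Without higher copper replicate 1, the library that stood apart, edgeR still called 0, but 1113 genes had an unadjusted p under 0.05. Without higher copper replicate 2 or 3 there were 209 and 243 such genes. The 110 genes were therefore not shown to differ between the copper levels. Both comparisons with control use the same 3 control libraries, and the values are set side by side only. For the 30 rises the median log2 fold change was 1.18 with higher and 0.67 with lower copper, with lower copper values from 0.02 to 1.57. For the 80 falls the medians were −0.68 and −0.33, with lower copper values from −0.87 to −0.01.

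The later comparisons used other libraries at 4 h and at 12 h, but the same estimate of each gene's spread from all libraries. A gene with a low estimate is favoured at every time, so the calls are not independent. The doubted control pair also links 1 h with 4 h. Of the 110 genes called at 1 h, 97 were called again at 4 h and 52 at 12 h. At 4 h 287 genes rose (3.99% of those tested) and 374 fell (5.2%). They included 26 of the 30 rises of 1 h (86.7%, and 9.06% of the 4 h rises) and 71 of the 80 falls (88.8%, and 19% of the 4 h falls). At 12 h 350 genes rose (4.87%) and 502 fell (6.98%), among them 18 of the 30 rises (60%, and 5.14% of the 12 h rises) and 34 of the 80 falls (42.5%, and 6.77% of the 12 h falls). None of the 110 was called in the other direction at either time. The medians of the rises were 1.18, 1.33 and 0.84 at 1, 4 and 12 h, and those of the falls −0.68, −0.81 and −0.36. At all 3 times 18 rises and 32 falls were called. The test of the difference itself, the change of the copper effect from 1 to 4 h, called 1 of 7190 genes (0.0139%). For genes this test was not checked with the doubted labels exchanged.

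**Figure D2:**
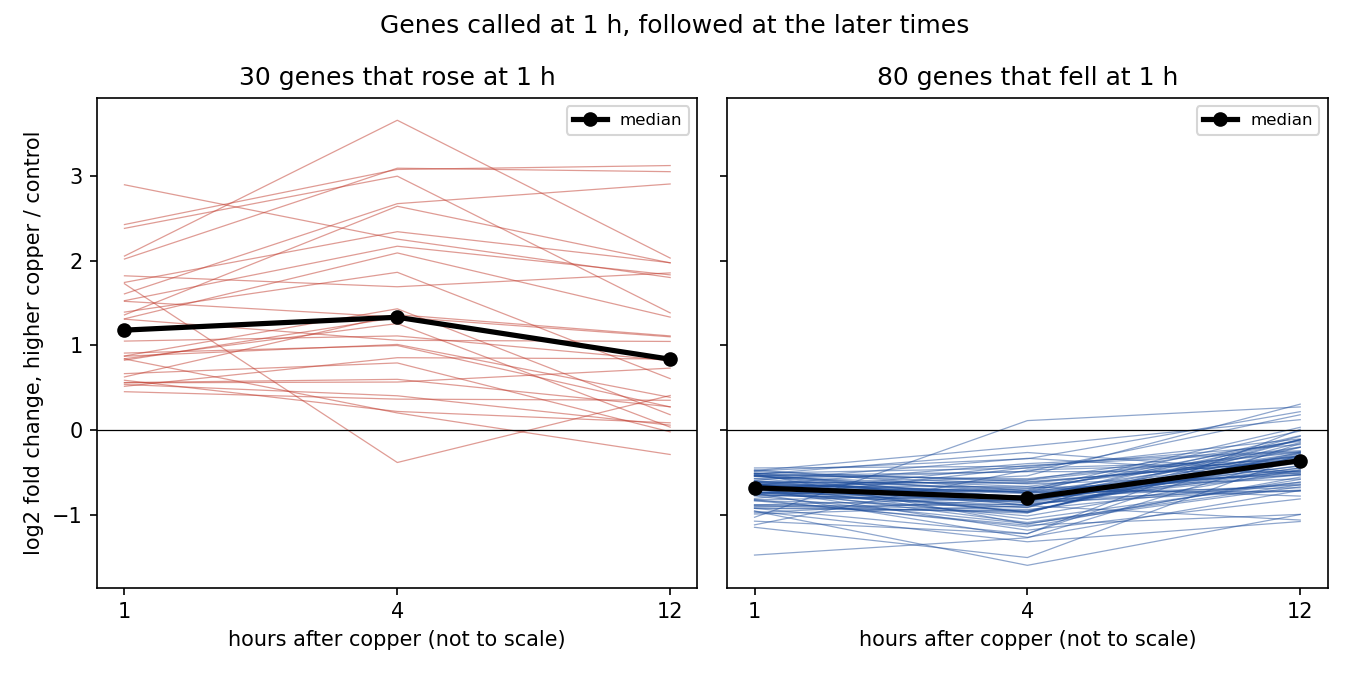
Log2 fold change of higher copper against the time-matched control (vertical axis) at 1, 4 and 12 h for the 30 genes that rose and the 80 that fell at 1 h, 1 line per gene, with the median in black. The medians go from 1.18 over 1.33 to 0.84 in the rises and from −0.68 over −0.81 to −0.36 in the falls.

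The carry-over moved with single libraries. Called again at 4 h were 32 of 36 genes without higher copper 1 h replicate 3, 64 of 66 without control 0 h replicate 2 and 61 of 64 without control 4 h replicate 2. At 12 h it was 19 of 36 without higher copper 1 h replicate 3, 29 of 96 without control 12 h replicate 3, 34 of 79 without higher copper 12 h replicate 2 and 20 of 112 without higher copper 12 h replicate 3, against 52 of 110 with all libraries. With exchanged labels it was 146 of 205 at 4 h and 90 of 205 at 12 h.

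Among the named genes OT_ostta18g00970 rose again at 4 h by 3.00 ± 0.49 (edgeR adjusted p = 0.000214) and stood at 1.38 ± 0.47 at 12 h (adjusted p = 0.0528). OT_ostta01g06030 rose by 2.26 ± 0.51 at 4 h and by 1.80 ± 0.52 at 12 h (edgeR adjusted p = 0.00488 and 0.0237). OT_ostta05g03160 fell by 1.51 ± 0.21 at 4 h (edgeR adjusted p = 4.98e-05) and OT_ostta03g04260 by 1.27 ± 0.35 (adjusted p = 0.02), while at 12 h they stood at −0.31 ± 0.21 and −0.29 ± 0.36 and were not called.

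Of the KEGG modules, 12 of 236 passed the same test at 1 h (5.08%; 38 had an unadjusted p below 0.05), of which 7 rose (2.97%) and 5 fell (2.12%). The rises were in photorespiration and in the module that KEGG names formaldehyde assimilation, serine pathway. The synthesis of methionine, tyrosine and isoleucine, the Sec secretion system and the Prp19 splicing complex rose as well. The falls were in the glyoxylate cycle, acylglycerol degradation, the light phase of crassulacean acid metabolism, as KEGG names the module, the U4/U6.U5 tri-snRNP of the spliceosome and the TREX complex. All 12 had groups that did not overlap; over all modules 25 (10.6%) lay above the controls without overlap and 22 (9.32%) below. A gene family can belong to several modules, so module counts may share reads, to an extent not known here. In 28 libraries the module counts were 9.891 to 12.2 times the gene counts, so the 2 tables do not count alike. The reason was not tested. Module CPM are scaled to the total of the module table.

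Photorespiration (M00532), which recovers carbon after Rubisco has used oxygen in place of carbon dioxide, stood at 19554, 18560 and 21531 CPM in the controls and at 23804, 31484 and 30620 CPM with higher copper. Every copper library lay above every control, with replicate 1, the library that stood apart, the lowest of them. It rose by 0.53 ± 0.099 (log2, SE; edgeR adjusted p = 0.0045), and with lower copper it stood at 23279, 24308 and 25896 CPM, above every control and, in replicates 2 and 3, also above higher copper replicate 1. The rise was 0.68 ± 0.099 at 4 h (edgeR adjusted p = 9.73e-05) and 0.46 ± 0.099 at 12 h (adjusted p = 0.0034). The module of formaldehyde assimilation by the serine pathway (M00346), in which one-carbon units enter by way of serine and glycine, stood at 12612, 12737 and 13124 CPM in the controls and at 14100, 15980 and 15839 CPM with higher copper. It rose by 0.26 ± 0.064 (edgeR adjusted p = 0.0254), and the later rises were 0.38 ± 0.064 and 0.27 ± 0.064 (adjusted p = 0.000432 at 4 h and 0.00742 at 12 h). The Calvin cycle module (M00165), which fixes the carbon that photorespiration partly loses, stood at 0.07 below the control (SE 0.19) and did not pass.

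Of the 19 modules of amino acid synthesis 3 rose, 0 fell and 16 did not pass, beside 7 rises and 5 falls among all 236, and the median log2 fold change of the list was 0.118 against 0.0139 over all modules. Methionine synthesis (M00017), which also feeds the methyl donor S-adenosylmethionine, stood at 8941, 9048 and 8879 CPM in the controls and at 12041, 11945 and 10864 CPM with higher copper. By their labels the controls lay within a narrow band and the copper libraries above it. The module column labelled control 4 h replicate 3, the other of the doubted pair, stood at 10340 CPM. Methionine synthesis rose by 0.38 ± 0.080 (edgeR adjusted p = 0.0115). Tyrosine synthesis from chorismate (M00025) stood at 512, 467 and 617 CPM in the controls and at 749, 745 and 697 CPM with higher copper, and rose by 0.46 ± 0.10 (edgeR adjusted p = 0.0143). Isoleucine synthesis from threonine (M00570) stood at 2561, 2610 and 3217 CPM in the controls, with replicate 3 high, and at 3486, 4019 and 3693 CPM with higher copper. It rose by 0.42 ± 0.12 (edgeR adjusted p = 0.0454). All 3 rose again at 4 h, by 0.28 ± 0.080, 0.52 ± 0.10 and 0.70 ± 0.12 (edgeR adjusted p = 0.025, 0.00143 and 0.000589), and none of them was called at 12 h. The other modules that end in tyrosine (M00040, 0.07 ± 0.19) and isoleucine (M00019, 0.12 ± 0.12) did not pass. They may share steps with the modules called and are not read as separate routes. Cysteine synthesis (M00021, −0.18 ± 0.15) and serine synthesis (M00020, −0.09 ± 0.075) did not pass either.

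The glyoxylate cycle (M00012), a route from acetyl-CoA to organic acids, stood at 21.5, 22.9 and 12.6 CPM in the controls and at 2.93, 5.62 and 3.52 CPM with higher copper. It fell by 2.24 ± 0.59 on the log2 scale (edgeR adjusted p = 0.0298), the largest change of any called module, at a very low level. It was not called at 4 h (−1.31 ± 0.57, edgeR adjusted p = 0.15) or 12 h (−1.48 ± 0.57, adjusted p = 0.0806). With lower copper it stood at 8.39, 7.82 and 2.26 CPM, below the controls as well, but was not called (−1.63 ± 0.58, edgeR adjusted p = 0.289). The citrate cycle (M00009), which shares enzymes with it, stood at 11389 CPM in the controls and 11085 CPM with higher copper and did not pass (−0.04 ± 0.094). With a control mean of 19.0 CPM, M00012 may not count the reads of the enzymes they share. Its fall is therefore not read as one of the whole glyoxylate cycle. Acylglycerol degradation (M00098), in which lipases free fatty acids from glycerides, stood at 33.1, 36.3 and 48.9 CPM in the controls and at 15.6, 23.6 and 13.0 CPM with higher copper. It fell by 1.18 ± 0.30 (edgeR adjusted p = 0.0256) and again by 1.25 ± 0.30 at 4 h (adjusted p = 0.00636), but was not called at 12 h (−0.31 ± 0.30, edgeR adjusted p = 0.494). It was the 1 called of 21 lipid modules, a share near the 5.08% of all modules. Acyl-CoA synthesis for beta-oxidation (M00086), which activates fatty acids, lay above the controls without overlap at 0.41 ± 0.14 and did not pass at 1 h (edgeR adjusted p = 0.095).

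The module that KEGG names crassulacean acid metabolism, light (M00169), whose enzymes release and recycle the carbon of malate in many organisms without that metabolism, stood at 2290, 2432 and 2175 CPM in the controls and at 1848, 1763 and 2036 CPM with higher copper. It fell by 0.29 ± 0.071 (edgeR adjusted p = 0.0254), and at 4 and 12 h it fell by 0.32 ± 0.071 and 0.34 ± 0.071 (adjusted p = 0.00385 and 0.0034). The lower copper libraries, at 1970, 1973 and 1866 CPM, lay at the level of higher copper.

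In transcription and splicing 1 of 22 modules rose, 2 fell and 19 did not pass, beside 7 rises (2.97%) and 5 falls (2.12%) among all 236. The Prp19/CDC5L complex (M00353), which holds the active spliceosome together, stood at 19807, 19327 and 16343 CPM in the controls and at 27932, 23898 and 21604 CPM with higher copper, replicate 1 the highest. It rose by 0.40 ± 0.11 (edgeR adjusted p = 0.037). The U4/U6.U5 tri-snRNP (M00354), which joins the spliceosome before its activation, stood at 6974, 6374 and 5830 CPM in the controls and at 5649, 5118 and 5083 CPM with higher copper, and fell by 0.27 ± 0.080 (edgeR adjusted p = 0.0454). The TREX complex (M00406), which couples transcription to export of the messenger RNA, stood at 12432, 10690 and 11402 CPM in the controls and at 9255, 9079 and 9469 CPM with higher copper, and fell by 0.31 ± 0.091 (adjusted p = 0.0454). At 4 h the tri-snRNP fell by 0.32 ± 0.080 (edgeR adjusted p = 0.00735), while Prp19 (0.26 ± 0.11, adjusted p = 0.137) and TREX (−0.23 ± 0.091, adjusted p = 0.129) were not called. At 12 h the Prp19 complex rose by 0.49 ± 0.11 and the tri-snRNP fell by 0.31 ± 0.080 (edgeR adjusted p = 0.00558 and 0.0109), whereas TREX stood at −0.01 ± 0.091. The Sec system (M00335), which carries proteins across membranes and in plastids inserts them into thylakoids, stood at 4096, 4020 and 3940 CPM in the controls and at 5008, 4787 and 4560 CPM with higher copper. It rose by 0.25 ± 0.071 (edgeR adjusted p = 0.0447) and was not called later (0.17 ± 0.071 at 4 h and 0.00 ± 0.071 at 12 h). It was the 1 called of 14 secretion and glycosylation modules, which at this list size is near the 5.08% of all modules.

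**Figure D3:**
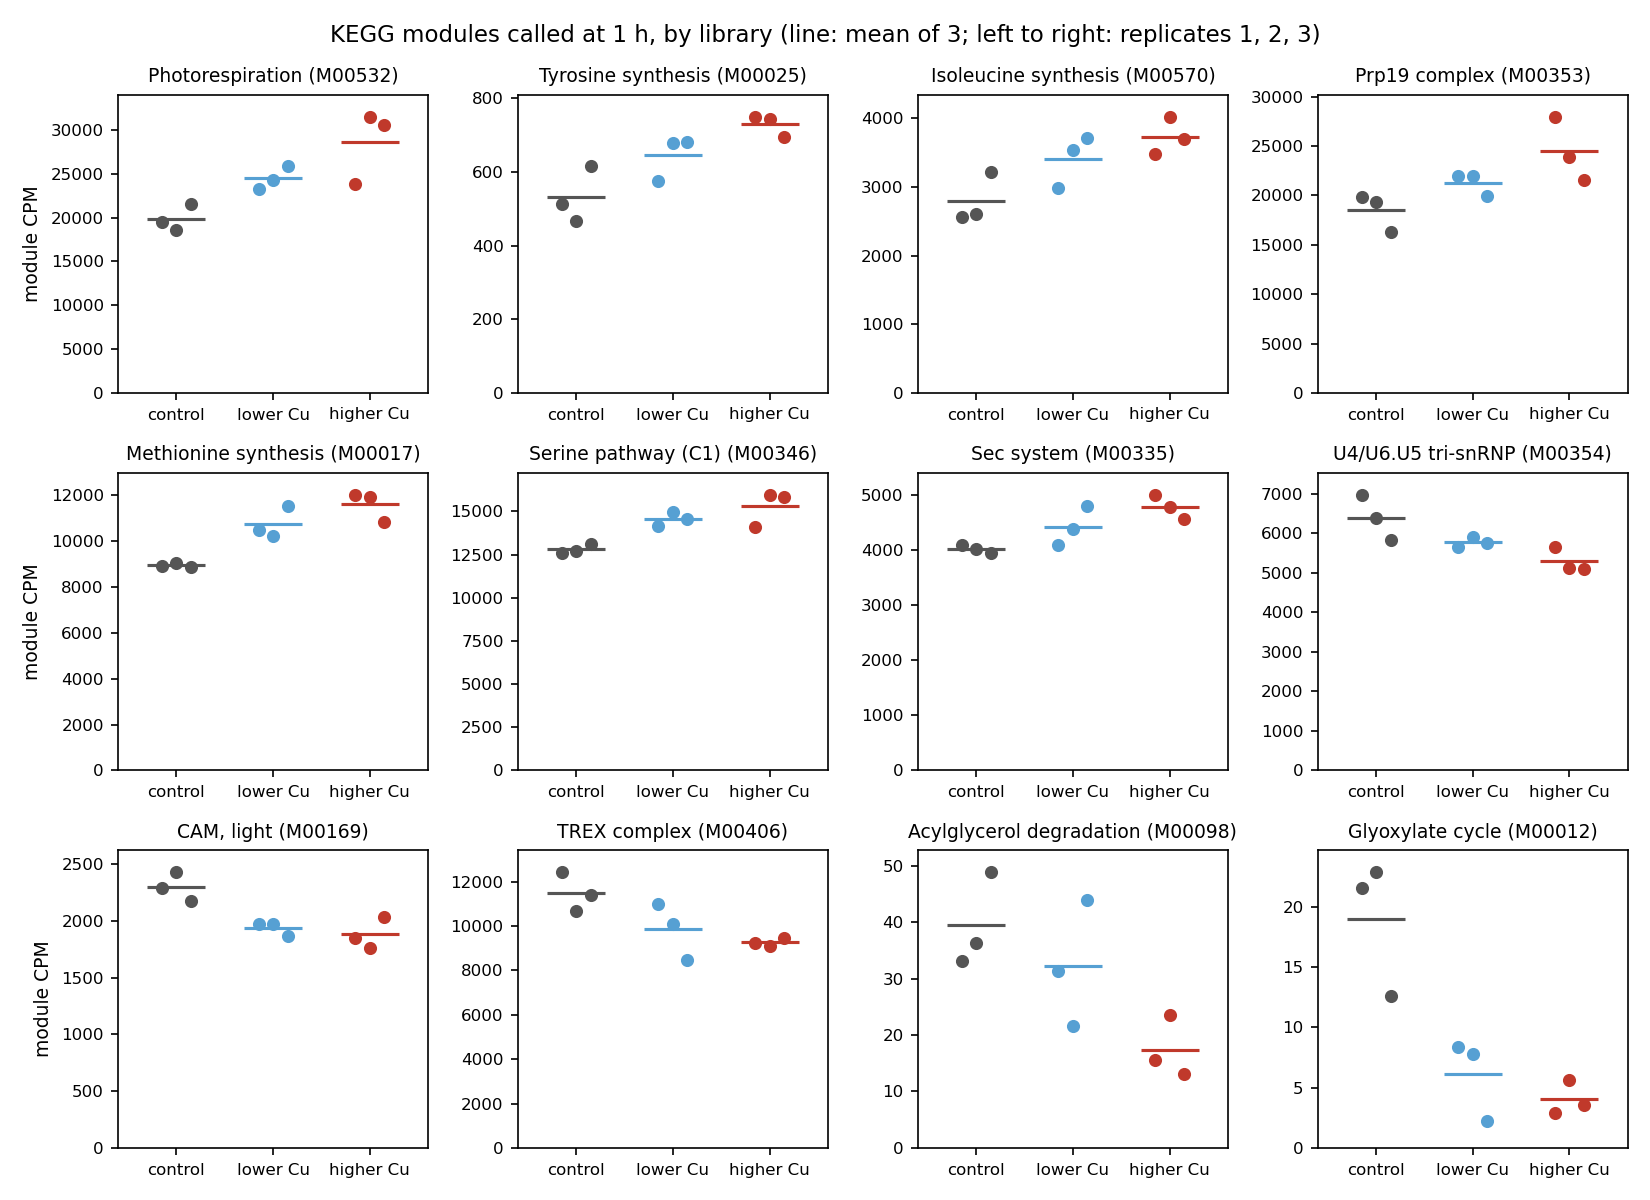
Module CPM (vertical axes, from 0) in each library at 1 h for the 12 called modules, grouped as control, lower copper and higher copper, with points for replicates 1 to 3 from left to right and a line at the mean. Every higher copper point lies outside the range of the controls, and the lower copper mean lies between the other means in all 12.

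Several lists of modules on which copper is known to act held no call at 1 h. Over all modules 5.08% were called, so in lists this short a count of 0 is not read as a result about them. Of 9 respiratory chain modules 0 were called, with a median of −0.27, and 3 lay below the controls without overlap, beside 9.32% of all modules. Cytochrome c oxidase (M00154), whose catalytic core holds copper, stood at 1309, 1419 and 1440 CPM in the controls and at 768, 1075 and 1259 CPM with higher copper. It was not called (−0.43 ± 0.18, edgeR adjusted p = 0.206). Of 4 modules of photosystems and photosynthetic electron transport 0 were called, 1 lay above the controls without overlap, the F-type ATPase of prokaryotes and chloroplasts (M00157, 0.15 ± 0.071), and 1 below. Photosystem II (M00161) stood at 799, 974 and 800 CPM in the controls and at 324, 214 and 511 CPM with higher copper, without overlap, but with lower copper it ran from 286 to 2560 CPM. The difference was not called (−1.29 ± 0.61, edgeR adjusted p = 0.3). Which subunits the reads of M00154 and M00161 came from is not known here, and the libraries were made for polyadenylated RNA. Their levels are therefore not read as those of the copper-holding or core subunits.

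Of 8 modules of sulfur, glutathione and antioxidants 0 were called; their median was 0.0274, and their values ran from −0.504 to 0.331 on the log2 scale. The lowest was glutathione synthesis (M00118), which makes the thiol that buffers metals and oxidants and stood at 1382, 1422 and 1217 CPM in the controls and at 796, 1068 and 973 CPM with higher copper. The copper libraries lay below the controls without overlap, and the difference of −0.50 ± 0.17 did not pass at 1 h (edgeR adjusted p = 0.106). It fell at 4 h by 0.75 and at 12 h by 0.63 on the log2 scale (edgeR adjusted p = 0.0051 and 0.0163). Tocopherol synthesis (M00112), a lipid antioxidant, stood at −0.31 ± 0.14 with overlapping groups. Of 11 modules of metal and other transport 0 were called; their median was −0.124, and their values ran from −0.709 to 0.321. The iron complex transport module (M00240) stood at 157, 155 and 235 CPM in the controls and 195, 235 and 242 CPM with higher copper, with overlapping groups (0.30 ± 0.18, edgeR adjusted p = 0.465). Of 12 cofactor modules, 7 of DNA replication, 15 of cell cycle and repair, 8 of ribosome and proteasome and 6 of nucleotide synthesis, 0 were called, with medians between −0.177 and 0.0757. For all of these a p that misses the threshold does not show that the levels were alike.

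The 2 modules of nitrate use had the largest positive log2 fold changes of all 236 and were not called. Assimilatory nitrate reduction (M00531), the reduction of nitrate to ammonia, stood at 4607, 5665 and 7999 CPM in the controls and at 21573, 19742 and 11664 CPM with higher copper. Nitrate assimilation (M00615), which adds nitrate uptake, stood at 3407, 3544 and 6085 CPM and at 18330, 15747 and 8580 CPM. The groups did not overlap in either. The differences were 1.54 ± 0.82 and 1.71 ± 0.79 (edgeR adjusted p = 0.398 and 0.282). Their errors came from all 30 libraries, and at 12 h libraries of 1 group differed several-fold, with control replicate 2 at 16424 CPM and the other 2 controls at 1443 and 1682 CPM in M00531. Lower copper at 1 h ranged from 7863 to 20103 CPM in M00531. With edgeR on only the 6 libraries the adjusted p was 0.0782 for both, and with DESeq2 on only those 6 it was 9.34e-07 for both, so on the same libraries the call differed between the tools. With edgeR against the control at 0 h, a reference taken 1 h earlier, where 33 of 236 modules were called (14%), M00615 was called (2.90, adjusted p = 0.0186) and M00531 was not (2.27, adjusted p = 0.0703). Against the controls at 0 h and 1 h together, with 27 called (11.4%), M00615 was again called (2.30, edgeR adjusted p = 0.0183) and M00531 was not (adjusted p = 0.0636).

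**Figure D4:**
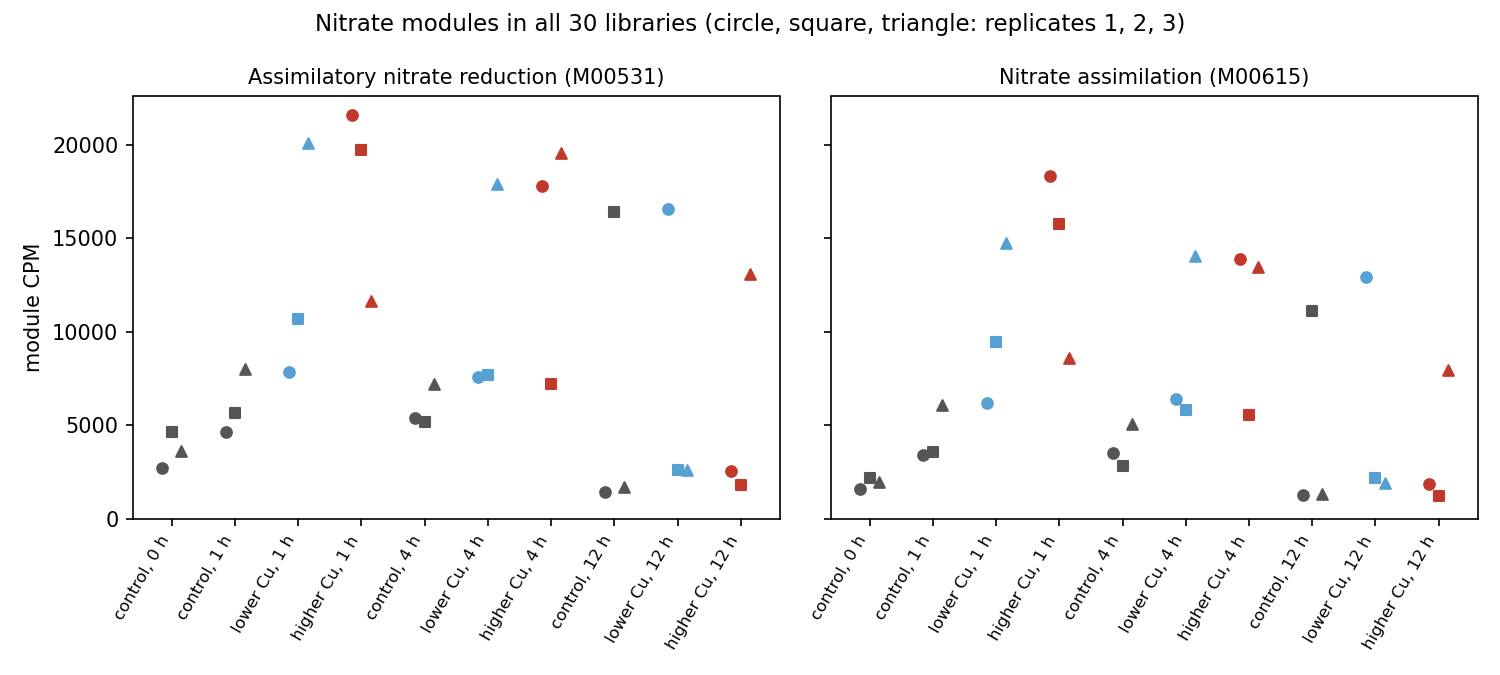
Module CPM (vertical axis) of both nitrate modules in all 30 libraries, grouped by time and copper level, with circles, squares and triangles for replicates 1, 2 and 3. At 1 h the 3 higher copper points lie above the 3 controls in both panels, and at 12 h 1 library of each group lies far above the other 2.

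The module calls depended on the doubted control. With the labels of control replicate 3 exchanged in the module table, 1 module was called, tyrosine synthesis (0.50, edgeR adjusted p = 0.0139). Photorespiration was then at 0.33 (adjusted p = 0.234) and methionine synthesis at 0.30 (adjusted p = 0.11). Photorespiration stood at 30416 CPM in the module column labelled control 4 h replicate 3 and at 26198 and 25475 CPM in the other 4 h controls. With both doubted controls left out 6 modules were called: the rises of photorespiration (0.57), tyrosine (0.56) and isoleucine synthesis (0.51), and the falls of the glyoxylate cycle (−2.47), M00169 (−0.34) and the tri-snRNP (−0.35). Without control replicate 1, control replicate 2 or higher copper replicate 2 of 1 h edgeR called 0 modules (27, 25 and 31 at an unadjusted p under 0.05), and it called 0 with only the 6 libraries (26). It called 6 without control 1 h replicate 3, higher copper 1 h replicate 3 or lower copper 1 h replicate 2. It called 7 without lower copper 1 h replicate 3, lower copper 4 h replicate 2 or 3, or control 12 h replicate 2 or 3. Without higher copper replicate 1 it called 12. Photorespiration (0.65, adjusted p = 0.000245), the serine pathway, methionine, tyrosine and isoleucine synthesis and the tri-snRNP were among these, and the other 6 modules were not (adjusted p 0.057 to 0.134). Of the 30 fits without 1 library, photorespiration and tyrosine synthesis were called in all but 3, methionine synthesis and M00169 in all but 4, the glyoxylate cycle in all but 5 and acylglycerol degradation in all but 6. The serine pathway was lost in 12, Prp19 in 13, TREX in 19, isoleucine synthesis and the Sec system in 22 each and the tri-snRNP in 24.

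Lower copper called 0 of 236 modules by edgeR (0%, with 20 at an unadjusted p under 0.05) and 1 by DESeq2. Higher against lower copper called 0 by edgeR (0%, with 9 at an unadjusted p under 0.05) and 0 by DESeq2. Without higher copper 1 h replicate 1 edgeR still called 0 in that comparison, with 43 modules at an unadjusted p under 0.05. Without higher copper 1 h replicate 2 or 3 there were 5 and 8 such modules. In all 12 called modules lower copper deviated from control in the direction of higher copper, as in photorespiration with 0.30 ± 0.099 and methionine synthesis with 0.26 ± 0.080; the 3 control libraries are shared. At 4 h 8 modules rose (3.39%) and 12 fell (5.08%), among them 5 of the 7 rises and 3 of the 5 falls of 1 h, which are 62.5% and 25% of the 4 h lists. At 12 h 21 rose (8.9%) and 18 fell (7.63%), among them 3 of the 7 rises and 2 of the 5 falls, or 14.3% and 11.1% of the 12 h lists. The change of the copper effect from 1 to 4 h was called in 0 of 236 modules by edgeR (0%; 4 at an unadjusted p under 0.05) and in 0 by DESeq2.

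By chromosome, the share of tested genes that edgeR called at 1 h ran from 0 of 55 on chromosome 19 to 4.62% on chromosome 18 (5 rose and 4 fell of 195), with 2.56% on chromosome 1 (2 rose and 14 fell of 626). Called genes that were neighbours in locus tag order formed 4 pairs, all falls, on chromosomes 3, 8, 11 and 18. In the authors' deposited table the longest run was 9 neighbours that rose on chromosome 10, from OT_ostta10g00920 to OT_ostta10g01000, with a further call at OT_ostta10g01020. This stretch was chosen after its values were seen. It holds 11 genes, of which 10 were tested, since OT_ostta10g01010 was removed by the filter on low counts.

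In 9 of the 10 tested genes of the stretch every higher copper library lay above every control, beside 7.45% of all tested genes. The stretch was chosen by the authors' calls on this same comparison, so that count is not read as a result about it. OT_ostta10g00950, the highest of them, stood at 693, 692 and 1055 CPM in the controls, at 1237, 1923 and 3007 CPM with lower copper and at 3940, 3007 and 1605 CPM with higher copper. The order of the copper libraries was thus replicate 3 highest with lower and replicate 1 highest with higher copper. At the other end OT_ostta10g01000 stood at 1.82, 0.989 and 2.84 CPM in the controls and at 7.64, 10.6 and 6.87 CPM with higher copper. The log2 fold changes of the 10 ran from 1.15 to 2.14 with a median of 1.56, while their control means ran from 1.88 to 813 CPM. With lower copper they ran from 0.95 to 1.34, and between the copper levels from 0.20 to 0.88. They ran from 0.70 to 1.53 at 4 h and from −0.96 to 0.19 at 12 h, and edgeR called none at either time.

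EdgeR called 0 of these 10 genes at 1 h (adjusted p 0.158 to 0.54; 6 at an unadjusted p under 0.05) and 0 with only the 6 libraries (adjusted p 0.234 to 0.296). All 10 are called in the authors' deposited table (adjusted p 4.18e-05 to 0.0383) because the stretch was chosen by those calls. DESeq2 on only the 6 libraries, which is not separate from that table, also called all 10 (adjusted p 3.73e-05 to 0.0328). DESeq2 on all 30 libraries called 0 (adjusted p 0.111 to 0.541). With edgeR against the control at 0 h, which called 835 of 7190 genes (11.6%), 5 of the 10 were called (lowest adjusted p 0.0114). Against the controls at 0 h and 1 h together, which gave 657 calls (9.14%), it was 6 of the 10 (lowest adjusted p 0.00923). With the doubted gene labels exchanged the values ran from 0.98 to 1.74, and with both doubted controls left out from 1.30 to 2.58, with 0 called by edgeR in each. Of the flanking genes, OT_ostta10g00900 stood at 1.85 ± 0.78 with overlapping groups, OT_ostta10g00910 at 0.68 ± 0.39 without overlap and OT_ostta10g01030 at 0.32 ± 0.18 with overlap.

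**Figure D5:**
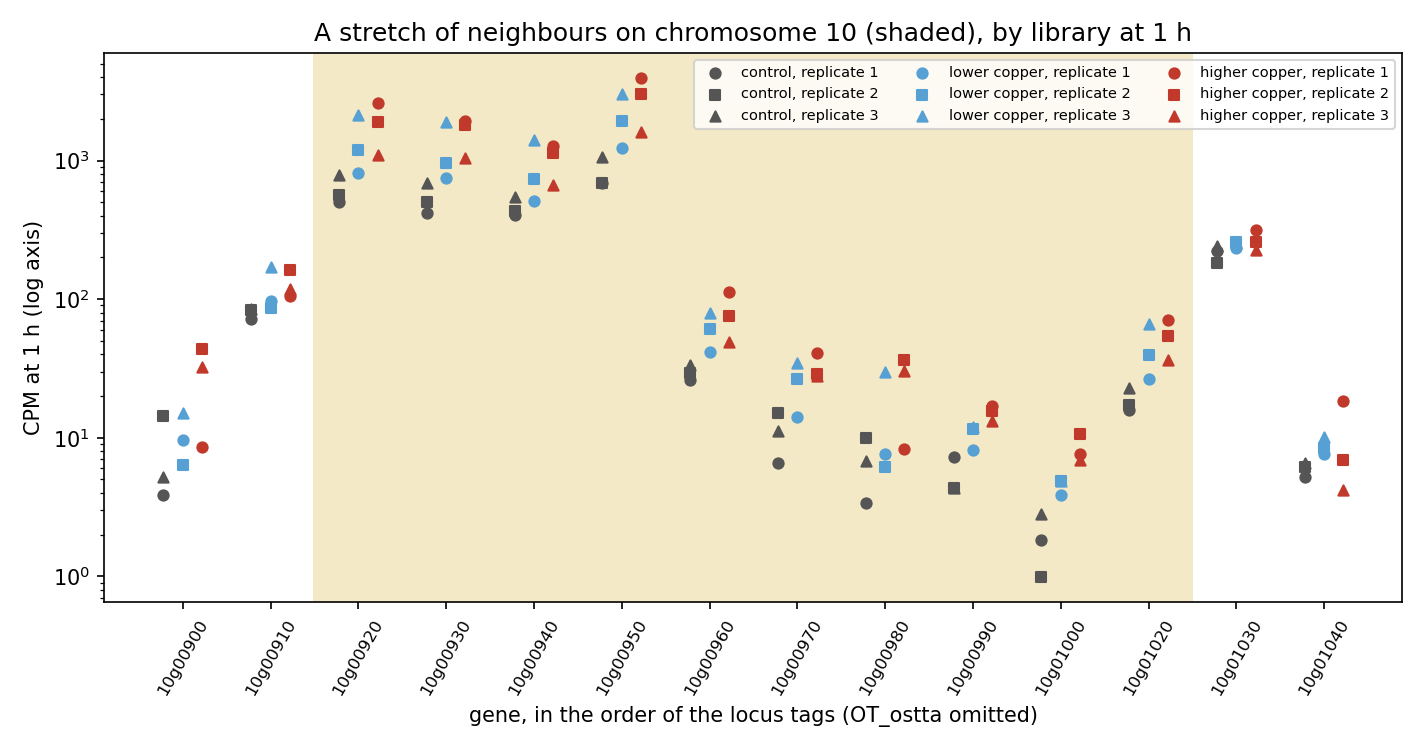
CPM at 1 h (vertical log axis) of the 10 tested genes of the chromosome 10 stretch, shaded, and of 2 tested genes on either side, in locus tag order, with grey, blue and red for control, lower and higher copper and a marker for each replicate. Within the shaded stretch, chosen by the authors' calls on this comparison, the red points lie above the grey ones in 9 of 10 genes. Over all tested genes the share is 7.45%. Levels run from about 1 to 3940 CPM.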

How the data were processed

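Per the labels' protocols, libraries were made with a stranded kit for polyadenylated RNA and sequenced as single reads of 50 nt; the sources used here name no aligner, counting tool, strand setting or build, so overlapping, antisense and near-identical genes are uncertain. The authors deposited counts per gene (7627 genes) and, from a homology search against KEGG, counts per module (236), both without normalization. A line without a gene name, which holds the column numbers 1 to 30 (0.000377% of the sum), was left out. The authors' deposited tables for the 3 comparisons at 1 h give log2 fold changes and adjusted p-values per gene; the submitters' processing notes name DESeq2.

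The test was run with edgeR 4.0.16 under R 4.3.3: filterByExpr (7190 genes kept, 437 removed; no filter for modules), TMM scaling, and the quasi-likelihood test on 1 fit of 10 group means over 30 libraries (20 residual degrees of freedom), with Benjamini-Hochberg adjustment within each comparison and calls at an adjusted p under 0.05. Each standard error is the absolute log2 fold change over the root of F; CPM use TMM library sizes. DESeq2 1.42.0 was an alternative. An exact permutation test of 3 against 3 cannot go below 0.1 and was not used. Of the gene identifiers 7626 matched a RefSeq locus tag, 2 with a symbol, neither called.

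Named genes are the 2 largest changes per direction among called genes whose groups do not overlap and whose mean log2 CPM reaches 1; all called modules are named. The 16 module lists hold 172 modules by number and were corrected after the module names were read. The comparison, lists and alternatives were chosen with earlier results of these data known.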

Additional observations from a re-analysis of the deposited data

Results flagged for a closer look

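In 1 gene the effect of higher copper differed between 1 h and 4 h by the test of that difference. OT_ostta03g02950, chosen after its values were seen, stood at 4.32, 5.14 and 5.46 CPM in the 1 h controls and at 6.98, 5.40 and 5.53 CPM with higher copper, with overlapping groups (0.25 ± 0.30, log2, SE). At 4 h it rose by 2.79 ± 0.31, from 2.81 ± 0.195 to 19.7 ± 7.57 CPM (SD, n = 3; edgeR adjusted p = 1.1e-05). The change of the effect was 2.54 ± 0.43 on the log2 scale (edgeR adjusted p = 0.0269), and the genes called at 1 h do not include it. Both doubted control libraries enter this difference. For genes it was not checked with their labels exchanged or with both left out.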

How the results depend on the processing

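The count of genes called for higher copper against control was 217 with DESeq2, 0 with only the groups compared, 205 with the doubted control labels exchanged, 835 with the control at 0 h as reference and 657 with the controls at 0 h and 1 h together. The count of modules was 0 with only the groups compared, 1 with labels exchanged, 6 with both doubted controls left out, 33 and 27 with those references, and 7 with DESeq2 on only the 6 libraries, an alternative chosen after seeing the data. DESeq2 called 1 module for lower copper. Genes called again at 4 h numbered 185 with DESeq2 and 146 with labels exchanged, and at 12 h 102, 90 and, with the replicate block, 83. The cause was not tested. Without 1 library each, the ranges were 0 to 155 genes, 0 to 16 modules, 32 to 135 genes called again at 4 h and 19 to 78 at 12 h, with no value for the 2 last where no gene was called at 1 h. Lower copper, higher against lower copper and the module change from 1 to 4 h gave 0 in all 30 such fits. Whether equal replicate numbers pair the samples was not settled. Deviations of same-numbered higher copper and control libraries correlated across genes at 0.426, 0.417 and −0.288. Replicates 1 and 2 correlated best with the same number and replicate 3 with number 2 (0.582). Control replicate 3 at 1 h is a library whose label is in doubt. With the replicate block 154 genes and 14 modules were called, and all 110 genes were among the 154. None of the genes named as the largest changes per direction, and none of the modules called at 1 h, changed sign under any alternative run. OT_ostta01g06030 had no adjusted p with DESeq2 and was not tested when only the 6 libraries were fitted.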

Other observations

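The level of the chromosome 10 stretch, summed over its 10 tested genes, can be set beside that of the nitrate modules, which come from the other table. The summed level was 2074, 2273 and 3152 CPM in control replicates 1 to 3 at 1 h, 3407, 4955 and 8658 CPM with lower copper and 9976, 8056 and 4556 CPM with higher copper. Nitrate assimilation (M00615) in the libraries of the same labels stood at 3407, 3544 and 6085 CPM, at 6171, 9437 and 14743 CPM and at 18330, 15747 and 8580 CPM. Both were highest in replicate 3 of lower copper and replicate 1 of higher copper. The values under the label control replicate 3 may come from different libraries, since that label is in doubt in 1 of the tables. At 12 h control replicate 2 stood at 7218 CPM in the stretch and 11123 CPM in M00615, against 687 and 886 CPM, and 1234 and 1331 CPM, in the other 2 controls. The deposited tables do not say which genes a module's reads came from.

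Other modules also had groups at 1 h that did not overlap, without passing the test. Over all modules 10.6% lay above the controls in this way and 9.32% below. Those given here are examples, and in M00694 and M00119 the nearest libraries of the groups differed by little. Galactose degradation by the Leloir pathway (M00632) stood at 65.2, 43.4 and 65.0 CPM in the controls and at 106, 76.6 and 77.0 CPM with higher copper (0.58 ± 0.19, edgeR adjusted p = 0.095). The module named cGMP signaling (M00694) stood at 374, 298 and 333 CPM in the controls and at 571.6, 614.9 and 376.4 CPM with higher copper (0.64 ± 0.20, edgeR adjusted p = 0.0787), and rose at 4 h by 0.94 and at 12 h by 0.87 on the log2 scale (adjusted p = 0.0028 and 0.0063). Pantothenate synthesis (M00119), which leads to coenzyme A, stood at 728, 703 and 626 CPM in the controls and at 616, 411 and 423 CPM with higher copper (−0.51 ± 0.17, edgeR adjusted p = 0.101), and fell at 4 h by 0.78 and at 12 h by 0.56 (adjusted p = 0.0034 and 0.0269).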
